A study of Mus musculus with 6 samples.

Results

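Integrins are the adhesion receptors with which T cells hold on to vessel walls, tissue matrix and target cells. The 10 integrin genes described here (Itga1, Itga2, Itga4, Itga6, Itgae, Itgal, Itgam, Itgb1, Itgb2 and Itgb7) were chosen by gene name, and all 10 were found on the array, where 26 of its 41174 probes other than controls carry their names. The RNA was that of hepatic CD8+ T cells, isolated from female mice on the C57BL/6 background aged 13 to 14 weeks. The 3 TG samples carried dnTGFbetaRII, a dominant negative form of the type II TGF-beta receptor. The 3 TGC3 samples carried the same transgene and lacked CXCR3 (dnTGFbetaRII CXCR3-/-), so that blunted TGF-beta signalling is common to both groups and no mouse with normal TGF-beta signalling is among them. The labels do not name the promoter of the transgene; in the widely used line of this name it is the Cd4 promoter, which acts in T cells. Nothing in the labels beyond the sample codes says that the samples came from separate mice, and the tests below measure only how much these samples vary, which may be technical.

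An integrin is a pair of an alpha and a beta chain, and the pair sets what the cell can bind. Itgb1 pairs with Itga1 and Itga2 for collagens, with Itga6 for laminins and with Itga4 for VCAM-1 and fibronectin. Itgb7 pairs with Itga4 for MAdCAM-1 of gut vessels and with Itgae for E-cadherin of epithelia. Itgb2 pairs with Itgal for the ICAMs, a pair that also holds T cells on liver sinusoids, and with Itgam, which is best known from myeloid cells. Itga1 and Itgae are commonly used as markers of T cells that reside in tissues, and Itgae is known to be induced by TGF-beta.

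All values are log2 of the processed 1-colour (Cy3) signal after each array's 75th percentile was set to 0, so a value of 1 lies 2-fold above that percentile; levels of different probes are not comparable with one another. An array had 58.9% to 63.8% of its probes well above background. Cxcr3 gave 23.8, 33.0 and 27.0 intensity units in TGC3 and 68779, 66107 and 73352 in TG (2615-fold lower in TGC3; whether its probe lies in the deleted stretch was not tested). All 8 listed T cell markers were well above background on all 6 arrays, with a summed signal of 575392 to 619012 units in TGC3 and 578916 to 669511 in TG; 2 were lower by limma (Cd3g, -0.29, adjusted p = 0.0468, and Cd5, -0.41, 0.0380), and their median change was -0.21. The 3 TGC3 arrays shared 1 slide and the 3 TG arrays another, and for each difference below the effects of slide and of genotype cannot be told apart. Some markers of other cell types also differed between the groups. Of the neutrophil markers 2 of the 3 that passed the filter were higher in TGC3, and the summed signal of the 7 of 8 on the array was 904 to 4908 units in TGC3 and 20.9 to 49.4 in TG, highest on TGC3 2, with Mmp8 well above background on no array. Of the macrophage and monocyte markers 3 of 6 were higher (sum 724 to 2033 against 479 to 593 units; C1qa and C1qc on no array), of the dendritic cell markers 2 of 3 (566 to 660 against 290 to 353; Cd209a, Clec9a and Siglech on no array), of the B cell markers 3 of 4 (3321 to 3667 against 2993 to 4070; Blk on no array) and of the endothelial markers 1 of 3 (434 to 461 against 367 to 388; Cdh5 and Kdr on no array). The part of these cells in the integrin changes was not tested, and in bulk RNA fewer cells of a type and less RNA per cell cannot be told apart.

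The probes are 60 bases long and are numbered here by their position in mm9. Those below are shown because the calls for Itga4, Itgb1 and Itga1 rest on them: for Itga4 only the first 30 bases are given, to show that the 6 probes read separate stretches along the gene on chromosome 2, and for Itgb1 and Itga1 the whole probes that passed the test and cross a splice junction. The Itga4 probes lie at chr2:79113395-79113454, chr2:79132945-79133004, chr2:79164263-79164322, chr2:79166873-79166932, chr2:79167663-79167722 and chr2:79170690-79170749, plus strand. Probes 4 to 6 were designed on the reference mRNA NM_010576, probe 3 on the cDNA AK037794 and probes 1 and 2 on other Ensembl transcripts of the gene.
Itga4 probe 1: actaacagtatccttcctttgtttactttg
Itga4 probe 2: aaggaagcccaactattcctaggagccctt
Itga4 probe 3: ctgtaggcctaggtgaagtttggaatttct
Itga4 probe 4: ttttgtgacatactcttagtgcaggggaaa
Itga4 probe 5: ccttttactctgcagataggaactgtaaaa
Itga4 probe 6: aacttcttcaagctgatatgggcgttgaga
Itgb1 probe 2: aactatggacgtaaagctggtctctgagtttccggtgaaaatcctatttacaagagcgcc
Itga1 probe 2: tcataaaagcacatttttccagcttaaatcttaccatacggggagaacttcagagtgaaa
The Itgb1 probe, on the plus strand, reaches over 5019 bases of the genome (chr8:131250931-131255949), and the array's annotation ties it to U37029, the mRNA of the beta1D splice form. The Itga1 probe, on the minus strand, reaches over 1655 bases (chr13:115756765-115758419). Exon and untranslated region annotation of mm9 was not used here.

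Integrin genes did not move as a block. Itga4 rose at 5 of 6 probes and had the smallest p-values of the 26, Itgb1 was higher at 2 of 3 probes and Itga1 lower at 1 of 4, and Itgal, Itgb2 and Itgb7 passed the test in neither direction. Each probe was tested with limma, with p adjusted (Benjamini-Hochberg) over the 25103 probes that stood well above background on 3 or more of the 6 arrays. All 26 integrin probes were among these. Of the 26, 8 were higher and 1 lower in TGC3 and 17 passed neither way, with a median change of -0.04 log2 (TGC3 minus TG). Over all 25103 probes 22.1% were called, 13.7% higher and 8.37% lower, with a median of -0.02. Of the 8 higher probes 5 read the same gene, Itga4. Itgb1 probe 2 and Itga2 probe 2, also among the 8, were dim, and dim probes were called higher more often than all probes (values below). With each gene read by its brightest probe, 2 of 10 genes (Itga4 and Itgb1) were higher and 1 (Itga1) lower, against 16.1% and 8.53% of all 16395 genes (24.6% in all), so the share that changed was near the background. The values of the 2 groups did not overlap at 14 of the 26 probes, with TGC3 above TG at 8 and below at 6, against 44.3% of all probes (21.8% above and 22.4% below). By brightest probe they did not overlap for 4 of 10 genes, 2 above and 2 below, against 46.7% of all genes (24.3% and 22.4%). Among all probes called, 62.1% were higher; with arrays centred on the median this share was 23.4%, since that centring moved the median of all probes from -0.02 to -0.19. It was 49.3% under normexp once 7 aberrant spot backgrounds had been replaced.

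**Figure D1:**
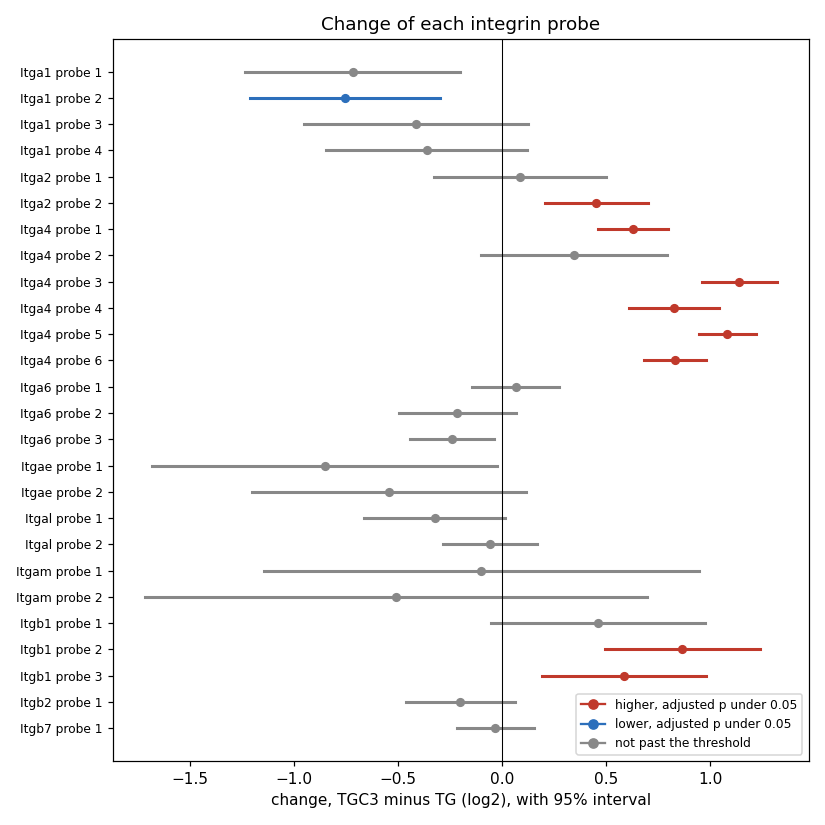
Change of each of the 26 integrin probes, TGC3 minus TG in log2 (x axis), with its 95% interval from limma as a line; red probes were higher and blue probes lower at an adjusted p under 0.05, and grey ones passed neither way. The red points are 5 of 6 Itga4 probes, 2 of 3 Itgb1 probes and 1 of 2 Itga2 probes.

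Itga4, the alpha chain that lets T cells bind VCAM-1 or, with Itgb7, MAdCAM-1, rose at 5 of its 6 probes. Probe 5 gave intensities of 1643, 1670 and 1758 on the TGC3 arrays, in replicate order, against 729, 744 and 828 for TG. On the scaled log2 axis TGC3 stood at 1.47, 1.45 and 1.50 there and TG at 0.38, 0.38 and 0.42. The groups were far apart against a spread of 0.0228 in TGC3 and 0.0225 in TG (SD, n = 3 each), and the change of 1.08 ± 0.06 (SE, limma adjusted p = 5.3e-04) was a 2.12-fold rise. Probe 3 gave the largest change: TGC3 stood at 3.26, 3.28 and 3.38 log2 and TG at 2.08, 2.15 and 2.26, a rise of 1.14 ± 0.07 (2.21-fold, limma adjusted p = 9.4e-04). Probe 6, the brightest, read 5.69, 5.72 and 5.65 in TGC3 and 4.87, 4.80 and 4.89 in TG (1.78-fold, limma adjusted p = 0.00147). At each of these probes every TGC3 array lay above every TG array.

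The remaining probes of Itga4 also had changes above 0. Probe 4 read 0.21, 0.44 and 0.38 in TGC3 and -0.43, -0.42 and -0.59 in TG (1.77-fold, limma adjusted p = 0.00349). Probe 1, nearest the start of the gene, read 0.33, 0.40 and 0.43 in TGC3 and -0.17, -0.24 and -0.32 in TG (1.55-fold, limma adjusted p = 0.00373). The dimmest, probe 2, did not pass: its values of -2.82, -2.34 and -2.60 in TGC3 overlapped those of -2.72, -2.81 and -3.28 in TG, and its change was 0.35 (95% interval -0.10 to 0.79). Differences between the rise at probe 6 and that at the other Itga4 probes, tested within arrays by exact permutation, had p of 0.10 to 1, where 0.10 is the smallest that 3 against 3 arrays allow. Over 16 within-gene comparisons of this kind no adjusted p was below 0.229. The 5 probes passed without any 1 array (adjusted p up to 0.0197), and probe 3 lay between 0.97 and 1.47 over all alternatives. Only the normexp correction on unrepaired backgrounds, which left 0 of all probes higher and 1 lower, ended their calls (adjusted p = 0.672).

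**Figure D2:**
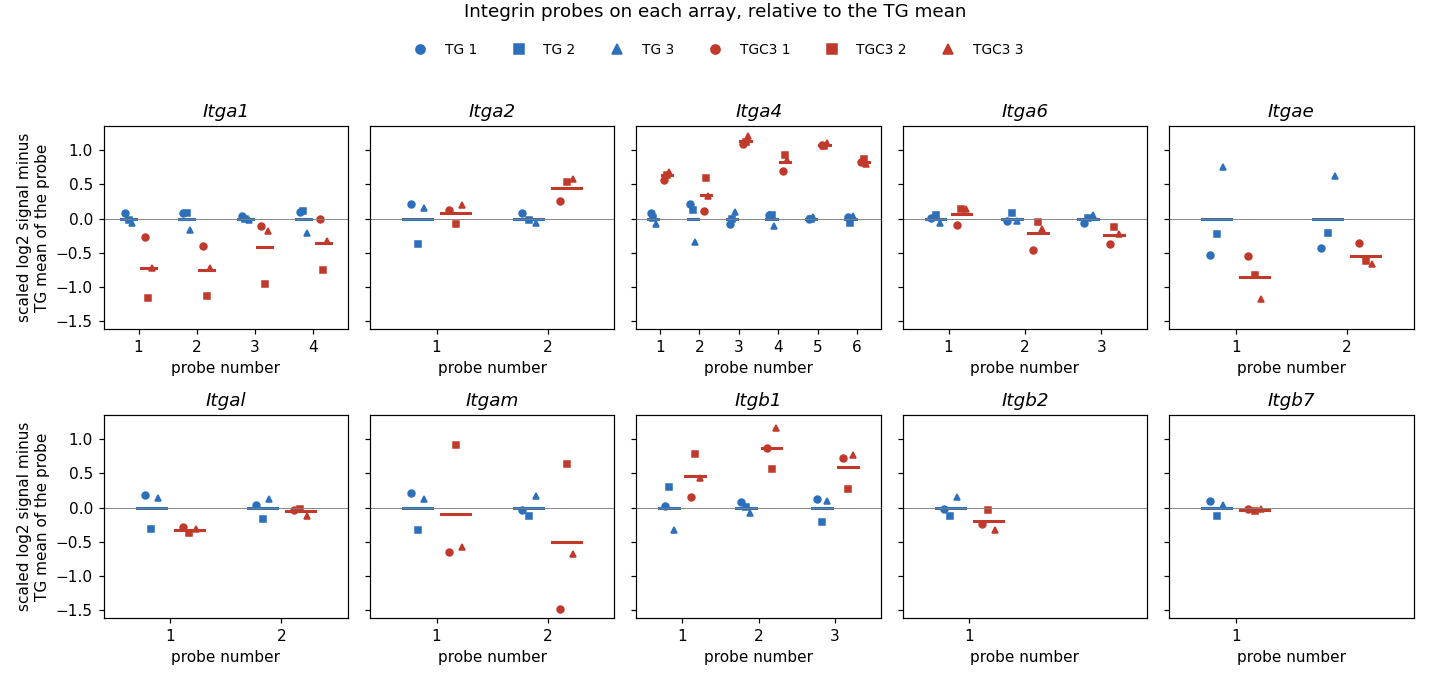
Scaled log2 signal of every integrin probe on every array, given as the difference from the mean of the 3 TG arrays at that probe (y axis), for TG (blue) and TGC3 (red); symbols give the replicate, short lines the group means, and the x axis the probe number in order of genome position. TGC3 lies above TG at 5 of 6 Itga4 probes, TGC3 2 is the lowest array at each Itga1 probe, and TG 3 is the highest at both Itgae probes.

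Itgb1, the beta chain shared by the collagen, laminin and VCAM-1 receptors, was also higher. Its brightest probe, 3 (chr8:131256492-131256551), was spotted 10 times on each array, and the spots were averaged. TGC3 stood at 2.43, 1.97 and 2.48 and TG at 1.82, 1.50 and 1.79. The groups were apart, with TGC3 2 nearest to TG, and the change of 0.59 ± 0.16 was a 1.50-fold rise (limma adjusted p = 0.0479). Probe 2, tied to the beta1D form known from striated muscle, was dim: it read -2.47, -2.78 and -2.17 in TGC3 and -3.26, -3.34 and -3.42 in TG, a rise of 0.87 ± 0.15 (1.82-fold, limma adjusted p = 0.0131). Probe 1 (chr8:131246349-131246408) overlapped, with 1.15, 1.78 and 1.43 in TGC3 against 1.02, 1.29 and 0.67 in TG, and its change of 0.46 had a 95% interval of -0.05 to 0.97. TGC3 2 was the highest of the 6 arrays at probe 1 and the lowest TGC3 array at probes 2 and 3. Probe 2 stayed past the threshold without any 1 array, but probe 3 did so only without TGC3 2 (adjusted p = 0.0884 to 0.131 without each other array). Probe 3 also did not pass with median centring (adjusted p = 0.0994) or with no filter (0.102).

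Itga1, the collagen receptor chain used as a marker of liver-resident T cells, was the integrin with a fall past the threshold. Probe 2 read 1.11, 0.38 and 0.80 in TGC3 and 1.60, 1.60 and 1.36 in TG. Every TGC3 array lay below every TG array, and the change of -0.75 ± 0.19 was a 1.69-fold fall (limma adjusted p = 0.0360). Probe 1, which did not pass, read -0.81, -1.69 and -1.26 against -0.46, -0.55 and -0.59 in TG (change -0.72, limma adjusted p = 0.0582). Probes 3 and 4 had changes of -0.41 and -0.36 (adjusted p = 0.227 and 0.236), and the groups overlapped at probe 4. At 3 of the 4 probes TGC3 lay below TG without overlap, against 22.4% of all probes (44.3% without overlap in either direction). TGC3 2 was lowest at each probe; without it the change at probe 2 was -0.56 (adjusted p = 0.0423). The call at probe 2 was lost without TGC3 3 and without TG 1, TG 2 or TG 3 (adjusted p = 0.0635 to 0.105). It was also lost after quantile normalization (0.0504), on the submitters' normalized scale (0.0510) and with no filter (0.0811). Probe 2 passed in 8 of 17 settings of processing and left-out arrays, the main one included. Probe 1, not called in the main fit, passed as lower in 5 of the 17.

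The other alpha chains that pair with Itgb1 gave calls at 1 of 5 probes. Itga2, a second collagen receptor chain, is read by dim probes: probe 2 (chr13:115667906-115667965) read -3.38, -3.10 and -3.06 in TGC3 and -3.56, -3.66 and -3.69 in TG, a rise of 0.45 ± 0.10 (limma adjusted p = 0.0266). Both Itga2 probes lie in the same range of brightness as Itgb1 probe 2, where 557 of 2510 probes were called higher and the median change was 0.09. Probe 1 had a change of 0.09 (95% interval -0.33 to 0.50) with overlapping groups, so the Itga2 probes gave different calls. The call at probe 2 held without TGC3 1 and was lost without any other array (adjusted p = 0.0585 to 0.0830), and also with median centring (0.0537), quantile normalization (0.0640), the deposited values (0.0651) or no filter (0.0683); it passed in 6 of 17 settings. Itga6, the laminin receptor chain, had changes of 0.06, -0.21 and -0.24 at its 3 probes. At the brightest, probe 3, TGC3 read 1.49, 1.74 and 1.64 and TG 1.80, 1.88 and 1.92. The groups did not overlap there, but limma gave an adjusted p of 0.0886 (0.0151 with median centring, which also took probe 2 past the threshold, 0.0297).

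Itgae, the alpha chain of the E-cadherin receptor CD103, did not pass at either of its probes (limma; 0 called, and 1 of 2 lower at an unadjusted p under 0.05). At the brighter probe 2 (chr11:72959105-72960563) intensities were 650, 561 and 555 for TGC3, in replicate order, against 588, 697 and 1347 for TG. TG 3 stood above the other 5 arrays, and TG 1 and TG 2 lay close to TGC3. The change there was -0.54 ± 0.27 (limma adjusted p = 0.198), and without TG 3 it was -0.23. Probe 1 read -2.97, -3.24 and -3.59 in TGC3 and -2.94, -2.64 and -1.67 in TG, a change of -0.85 (95% interval -1.68 to -0.02, limma adjusted p = 0.125). Without TG 3 that change was -0.48. Itgb7, its beta partner, did not pass: it read 6.75, 6.71 and 6.74 in TGC3 and 6.85, 6.64 and 6.80 in TG, with a change of -0.03 and a 95% interval of -0.22 to 0.15.

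The beta-2 integrins gave no call on the 75th percentile scale; with median centring Itgb2 (limma adjusted p = 0.0413) and Itgal probe 1 (0.0374) passed as lower. Itgb2 read 4.92, 5.13 and 4.83 in TGC3 and 5.14, 5.04 and 5.31 in TG, with overlapping groups and a change of -0.20 (95% interval -0.46 to 0.06). Itgal, its partner in the ICAM receptor LFA-1 of T cells, read 5.56, 5.56 and 5.47 in TGC3 and 5.63, 5.42 and 5.71 in TG at its brightest probe, 2, with a change of -0.06 (95% interval -0.28 to 0.17). Its probe 1 had a change of -0.32 with overlapping groups (limma adjusted p = 0.148); without TG 2 that change was -0.48 and passed (0.0250). Itgam was dim and varied most within TGC3: probe 1 gave intensities of 31.5, 96.0 and 34.7 for TGC3, in replicate order, against 54.0, 37.8 and 56.0 for TG. The high array was TGC3 2, on which the neutrophil genes S100a8 and S100a9 were also highest (976 and 3678 units, against 169 to 333 and 696 to 1429 on the other TGC3 arrays and at most 4.05 and 14.6 in TG), as was Lyz2 of macrophages and neutrophils (1364 units). Their part in the Itgam signal was not tested. Without TGC3 2 the change at Itgam probe 1 was -0.61 and that at probe 2, which was well above background on 2 of 3 TGC3 arrays, was -1.08 and passed as lower (limma adjusted p = 0.0401).

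Since a heterodimer needs both chains, the difference between an alpha chain and its beta partner was taken within each array from the brightest probe of each; only its shift between groups has a meaning, since the probes differ in brightness. The groups did not overlap for 4 of the 8 pairs, and at 44.3% of all single probes. The share over pairs of other genes was not computed. Itga1, Itga2 and Itga6 were each set against Itgb1 probe 3, so these pairs share its change of 0.59. Itga2 itself changed by 0.09 at the probe used. Itga1 minus Itgb1 was -1.32, -1.59 and -1.68 in TGC3 and -0.22, 0.10 and -0.44 in TG, a shift of -1.34. Itga4 minus Itgb7 was -1.06, -0.99 and -1.09 in TGC3 and -1.98, -1.84 and -1.90 in TG, a shift of 0.86. For both pairs, for Itga6 minus Itgb1 (-0.83) and for Itga2 minus Itgb1 (-0.50), the two-sided exact permutation p was 0.10, the smallest possible (0.20 after adjustment over the 8 pairs). Itga4 minus Itgb1 shifted by 0.24 with overlapping groups (exact p = 0.30), Itgae minus Itgb7 by -0.51 (0.20), Itgal minus Itgb2 by 0.14 (0.20) and Itgam minus Itgb2 by 0.10 (1). No shift passed after adjustment, and none gives the amount of a pair.

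**Figure D3:**
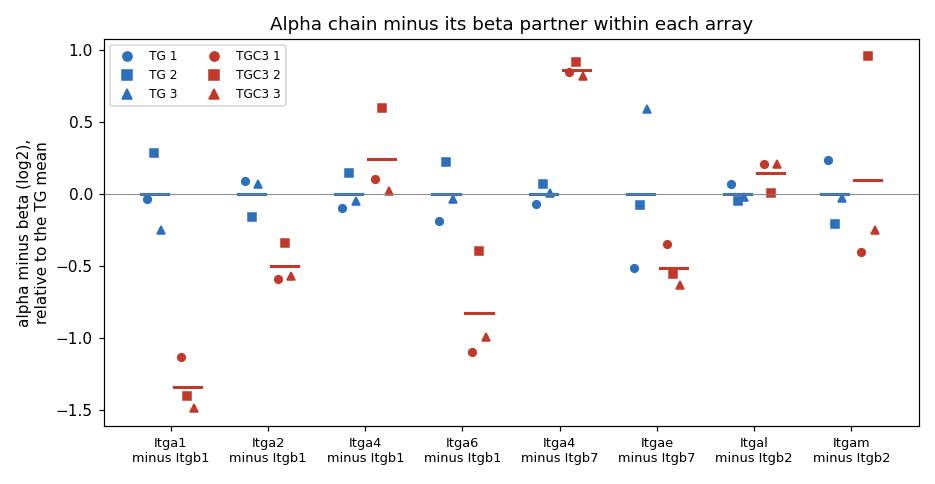
Alpha chain minus beta partner in log2 on each array, given relative to the mean of the 3 TG arrays (y axis), for 8 pairs (x axis) in TG (blue) and TGC3 (red); symbols give the replicate and short lines the group means. TGC3 lies below TG for Itga1, Itga2 and Itga6 against Itgb1 and above TG for Itga4 against Itgb7.

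Of 17 other integrin subunit genes listed, 16 were on the array and 8 passed the filter on low signal. Of these 8, 1 was higher and 0 lower (limma; 2 and 1 at an unadjusted p under 0.05), with a median change of 0.01, against 16.1% of all genes higher and 8.53% lower, so the share called was near the background. The 1 called was Itga7, a laminin receptor chain, dim and at -2.35, -2.28 and -2.11 in TGC3 against -2.79, -2.98 and -3.01 in TG (1.60-fold, limma adjusted p = 0.00672). The part in this call of the upward shift of dim probes, given above for Itgb1 probe 2, was not tested. Itgax, a partner of Itgb2, had a change of -0.18 (adjusted p = 0.549), Itgb3 one of -0.35 (0.110) and Itgav one of -0.10 (0.683). For Itgb3 and Itgav, 1 of 2 and 1 of 6 probes were higher, in each case not the brightest.

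Inside the cell, integrins are switched on by talin and kindlin, which Rap1 and its regulators direct to the beta chain tail. Of 48 such activation and adaptor genes, 43 passed the filter, and 4 were higher and 4 lower (median -0.05). These shares lie below the 16.1% and near the 8.53% of all genes. The core activators did not pass: talin (Tln1, -0.03), kindlin-3 (Fermt3, -0.10) and Rap1b (0.14) had adjusted p of 0.828, 0.364 and 0.405. The higher genes were the tetraspanins Cd81, at -1.48, -2.02 and -1.50 in TGC3 against -2.76, -3.48 and -2.80 in TG (2.55-fold, limma adjusted p = 0.0129), and Cd9 (1.54-fold, 0.0176), with vinculin (Vcl, 1.41-fold, 0.0172) and the Rap1 inactivator Rap1gap2 (1.61-fold, 0.0334). Cd81 and Cd9 are also known from B cells and other cells, and 3 of 4 B cell markers that passed the filter were higher. The part of such cells was not tested. Cd81 and Vcl were read by dim probes, and the part of the upward shift of dim probes was not tested either. The lower genes fell by small amounts. They were alpha-actinin 1 (Actn1, -0.36), the focal adhesion kinase relative Ptk2b (-0.27), the Ras exchange factor Rasgrp1 (-0.25) and cytohesin 1 (Cyth1, -0.23). Their limma adjusted p ran from 0.0130 to 0.0418. Rap1gap2, Rasgrp1 and Cyth1 were each called at only 1 of 2 kept probes, and Ptk2b at 2 of 2. The count lower was 1 without TGC3 1, TGC3 3 or TG 3 and 0 without TG 1 or TG 2, and the count higher 2 without TGC3 1 and 1 without TG 1 or TG 2.

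Integrin ligands are mostly made by other cells, and 16 of 42 listed genes passed the filter. Of these, 4 were higher and 0 lower (limma; 6 and 1 at an unadjusted p under 0.05), with a median of 0.20, against 16.1% of all genes higher and 8.53% lower and a median of -0.01. The higher ones were osteopontin (Spp1, 2.04-fold, limma adjusted p = 0.00993, well above background on 1 of 3 TG arrays) and the laminin chains Lama3 (1.37-fold), Lamb3 (1.33-fold) and Lamc1 (1.33-fold), with adjusted p of 0.00684 to 0.0465. Spp1, Lama3 and Lamb3 were read by dim probes; over all features the 2511 dimmest probes had a median change of 0.23 and the 2511 brightest one of -0.09. Icam1, the ligand of Itgal, did not pass (-0.19, limma adjusted p = 0.515), nor did Icam2 (-0.03, 0.765). Cdh1, the E-cadherin bound by Itgae, read -5.25, -3.45 and -4.80 in TGC3 and -3.28, -2.73 and -3.48 in TG, with overlapping groups (change -1.34, adjusted p = 0.0911). Vcam1 and Madcam1 did not pass the filter. The count of higher ligand genes was 2 without TGC3 1, TG 1 or TG 2, and without TGC3 2 the count lower was 3 here and 2 among the other subunits.

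**Figure D4:**
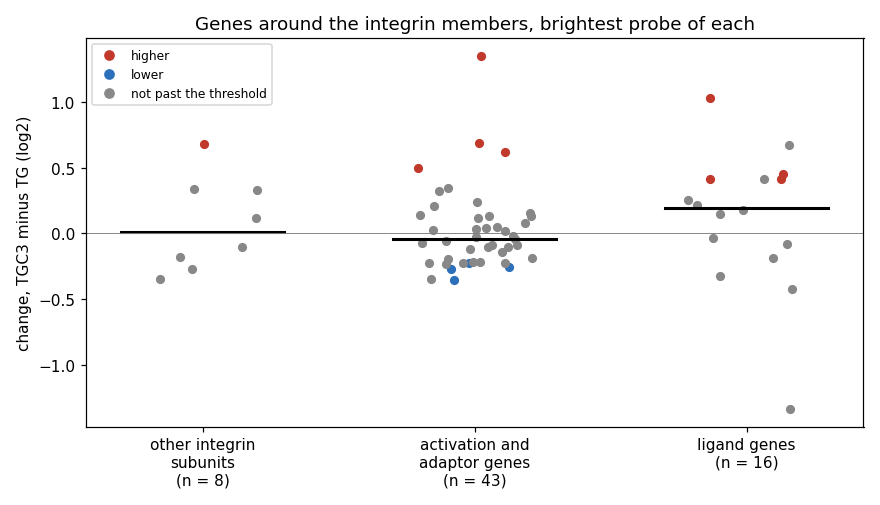
Change of each tested gene, TGC3 minus TG in log2 (y axis), for the other integrin subunits, the activation and adaptor genes and the ligands (x axis); points are genes read by their brightest probe, colour gives the limma call and black lines the medians (0.01, -0.05 and 0.20). Called were 1 of 8 other subunits, 8 of 43 activation and adaptor genes and 4 of 16 ligands, against 24.6% of all genes. The called decreases are the 4 small ones among the activation genes.

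The pattern of Itga4 probe 3 over the 6 arrays was shared by many genes. The 5 named genes with the highest Pearson correlation to it were Trf, Fosl2, Prdx4, Ccdc155 and Spint2 (0.998 to 0.999 over 6 arrays), and 139 probes exceeded 0.99. Since the arrays form 2 groups, such a correlation mainly says that a gene was higher in TGC3 with a small spread.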

How the data were processed

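RNA of liver CD8+ T cells was read on 6 one-colour Agilent arrays, 3 TGC3 and 3 TG, grouped by sample title. The arrays follow an mm9 design. Feature Extraction 10.7.3.1 made the scanner files, per the file headers; the submitters' processing notes name 10.7.1.1. Their deposited processed signal is a linear intensity that was already background-subtracted and spatially detrended. The deposited normalized values are on a log2 scale; how they were made is not given in the sources used here. Their column medians were 5.58, and they correlated with the log2 processed signal at 0.999 to 1.00, so they run the same way and are not centred on genes.

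Control spots and outlier spots were left out (11 probes), log2 values of a probe's spots were averaged, and each array's 75th percentile was subtracted. A probe was kept if it stood well above background on 3 or more of 6 arrays (25103 probes); 0 were saturated. The contrast of TGC3 and TG was fitted by limma 3.58.1 in R 4.3.3 (lmFit, eBayes, two-sided, Benjamini-Hochberg, threshold 0.05), and the procedure was tested on simulated data. Gene names are those of the files. For lists, the brightest kept probe stood for its gene. Named genes are all members, set core genes and up to 5 called genes of each list. Members and lists were chosen with earlier results of these data known. The number of arrays limits the precision. Alternatives concerned normalization, background, filter, variance model, array weights, replicate block, gene summary and leaving out each array. All deposited columns mapped to samples. Figures were drawn with Python 3.11.15 and matplotlib 3.10.9.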

Additional observations from a re-analysis of the deposited data

How the results depend on the processing

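Counts of called integrin probes, integrin genes (brightest probe) and list genes moved with the processing as follows, against 8 probes higher and 1 lower, 2 genes higher and 1 lower, 4 activation genes higher and 4 lower, 4 ligand genes higher and 0 lower, and 1 other subunit higher and 0 lower. With normexp on unrepaired backgrounds all of these counts were 0. With median centring 6 probes were lower, 1 integrin gene higher and 3 lower, 14 activation genes lower, 2 ligand genes higher and 2 lower, and 1 other subunit lower. Quantile normalization and the deposited values each gave 0 integrin probes, 0 integrin genes and 1 activation gene lower. Both also ended the call of Itga2 probe 2 as higher (limma adjusted p = 0.0640 and 0.0651). With no filter 0 integrin probes and 0 genes were lower, 1 gene higher, 1 activation gene lower and 2 ligand genes higher. Median centring and no filter each ended the higher calls of Itga2 probe 2 (limma adjusted p = 0.0537 and 0.0683) and Itgb1 probe 3 (0.0994 and 0.102). With repaired backgrounds 2 integrin probes and 8 activation genes were lower, with trend and robust settings 2 and 9, with array weights 2 and 8 (and 2 integrin genes, 2 ligand genes and 1 other subunit lower), and with the filter on all 6 arrays 2 integrin probes. With the mean of a gene's probes 0 integrin genes and 2 activation genes were lower. With the replicate number as a block 0 integrin probes, 0 integrin genes and 0 activation genes were lower, 2 activation genes higher and 1 ligand gene lower; the block ended the calls of Itga1 probe 2 (adjusted p = 0.0626) and Itga2 probe 2 (0.0808). Same-numbered arrays share only a number (correlations of their deviations -0.00142, -0.0446 and -0.105), and over all probes the block gave 2143 higher and 722 lower against 3441 and 2101. With array weights 6 activation and 6 ligand genes were higher.

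Leaving out 1 array at a time gave 6 to 7 integrin probes higher and 0 to 2 lower, 1 to 2 integrin genes higher and 0 to 1 lower, 1 to 4 activation genes higher and 0 to 5 lower, 2 to 4 ligand genes higher and 0 to 3 lower, and 1 other subunit higher with 0 to 2 lower. The cause of these moves was not tested.

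Signs turned only for probes without a call and for 1 pair, apart from turns under normexp on unrepaired backgrounds. That correction gave -0.57 and -0.51 for Itga2 probes 1 and 2, -0.53 for Itga4 probe 2, -0.22, 0.015 and 0.087 for Itga6 probes 1 to 3, 0.052 and 0.37 for Itgal probes 1 and 2, -0.29 for Itgb1 probe 2, 0.18 for Itgb2, 0.45 for Itgb7 and -0.98 for Itgam minus Itgb2. Itga2 probe 1 was -0.047 after quantile normalization, -0.048 with the deposited values and -0.088 with median centring, where Itga6 probe 1 was -0.11 (-0.0071 with array weights). Itgb7 was 0.016 and 0.012 and Itgam minus Itgb2 -0.12 and -0.12 after quantile normalization and with the deposited values, and Itgb7 was 0.026 with repaired backgrounds. Leaving out 1 array turned Itga2 probe 1 (-0.10 to 0.19), Itgal probe 2 (-0.14 to 0.0063), Itgam probe 1 (-0.61 to 0.17), Itgb7 (-0.10 to 0.013) and Itgam minus Itgb2 (-0.33 to 0.35). Dim probes such as those of Itgam and Itga2 are limited by signal near background.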
